A study of Mus musculus with 6 samples.

Results

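The 10 genes described here encode the main parts of the leukaemia inhibitory factor (LIF) pathway, from the cytokine (*Lif*) through its receptor chains (*Lifr*, *Il6st*), the receptor-bound kinases (*Jak1*, *Jak2*) and the transcription factor (*Stat3*) to genes that STAT3 and related STATs switch on (*Socs2*, *Socs3*, *Pim1*, *Pim3*). They were taken from the table by gene symbol, which all 10 had, out of 22380 genes listed for each library. LIF holds the LIF receptor and gp130 (the product of *Il6st*) together, the Janus kinases on their tails become active, and phosphorylated STAT3 moves to the nucleus. In mouse embryonic stem cells (mESC) this route is known for keeping self-renewal going, and the SOCS proteins it induces act back on the receptor as inhibitors.

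RNA came from 3 *Ctrl* and 3 *Tet iTKO* replicates of mESC derived from blastocysts. The paper states for its experiments in general that 3 cell populations from different embryos were used per genotype. Each library is therefore called a line here, although its label gives only a replicate number. *Ctrl* lines were CreERT2 wt/ki and Gt(ROSA)26Sor<tm1Ytchn>/J wt/ki (a nuclear GFP reporter), and *Tet iTKO* lines carried in addition Tet1/2/3 fl/fl, the floxed genes of the 3 enzymes that oxidize 5-methylcytosine. Both groups therefore carried CreERT2, which is driven by the ubiquitin C promoter, and both received 1 µM tamoxifen (4-OHT) for 2.5 days and were cultured for 4 more, so that cells were taken at day 6.5. All lines grew in medium with LIF and with the 2i inhibitors CHIR99021 (of GSK3) and PD0325901 (of MEK) on mouse embryonic fibroblast feeders, and live, GFP-positive, CD326-positive and CD90.2-negative cells were sorted. The paper's figure legend for these libraries also gives the sorted cells as SSEA1-positive. Since LIF was supplied in the medium, *Lif* mRNA does not measure how much ligand the cells received. The comparison asks how the RNA levels of the pathway stood after acute loss of the TET enzymes. Every library came from treated cells, with none from untreated floxed lines. Loss of the enzymes and other differences between the lines of each genotype therefore cannot be told apart.

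The values are normalized counts: reads on a gene divided by the library's size factor and rounded. Reads on genes were estimated at 3.66 to 5.10 M per library, and 3 normalized counts were taken as the floor that this depth can show. Counts over whole genes do not set the floxed exons apart: *Tet1* had 696, 682 and 716 normalized counts across *Ctrl* lines against 787, 895 and 753 across *Tet iTKO* lines, *Tet2* had 249, 170 and 230 against 233, 268 and 211, and *Tet3* had 28, 13 and 13 against 10, 3 and 3. Of 7 genes listed as mESC markers, 6 were well above the floor in all libraries and *Fut4* was not, with at most 2. Nothing is read from *Fut4* on the state of the cells. The 7 summed to 10154 to 10618 in *Ctrl* and 9367 to 9757 in *Tet iTKO* mESC. There *Pou5f1* (log2 fold change -0.29), *Nanog* (-0.3) and *Zfp42* (-0.35) fell and *Esrrb* (0.29) and *Epcam* (0.45) rose by limma. In the main fit these changes were about the size of those of *Stat3*, *Socs3* and *Pim3*. With the GC content and length correction they were -0.19, -0.1, -0.1, 0.06 and 0.53, against -0.62, -0.64 and -0.58. *Nanog*, *Zfp42* and *Esrrb* then lost their calls (limma adjusted p of 0.27, 0.49 and 0.5). With eBayes without the trend *Pou5f1*, *Nanog*, *Zfp42* and *Esrrb* lost theirs (limma adjusted p of 0.066, 0.057, 0.1 and 0.057), as did *Stat3* and *Pim3*. The 12 feeder fibroblast markers summed to 1652 to 1760 in *Ctrl* and 2554 to 2584 in *Tet iTKO* mESC. This gap lay in *Fn1*, *Col1a1*, *Col1a2* and *Col3a1*. Their log2 fold changes were 0.54, 0.89, 1.17 and 1.36, and 0.14, 0.44, 0.86 and 1.13 with the GC content and length correction. The other 8 markers summed to 42 to 71 and 42 to 84, with *Postn* at or under the floor in all libraries. *Fbn1*, too low to be tested, had 2, 1 and 2 in *Ctrl* against 15, 10 and 6 in *Tet iTKO* lines, without overlap. *Pdgfra*, also too low, had 2, 0 and 0 against 9, 0 and 2. The untested *Dcn* had 2, 3 and 15 against 1, 2 and 6, and *Lum* 2, 8 and 1 against 2, 2 and 1. Sums of 6 primitive endoderm markers ran from 1919 to 1988 in *Ctrl* and from 1368 to 1420 in *Tet iTKO* mESC, nearly all of it *Sparc*, and those of 6 trophoblast markers from 696 to 765 and from 622 to 650, most of it *Tfap2c*. Without *Tfap2c* the sum of the other 5 trophoblast markers went the other way, with 20 to 37 in *Ctrl* and 42 to 51 in *Tet iTKO* mESC. Among them *Eomes* had 10, 27 and 23 against 31, 36 and 35 and was not called (limma adjusted p = 0.091). *Hand1*, too low to be tested, had 0 in each *Ctrl* line against 6, 5 and 6. *Gata3*, also too low, had 10, 10 and 1 against 4, 5 and 4. Of the primitive endoderm markers besides *Sparc*, *Gata4* had 2, 7 and 10 against 21, 12 and 27, and *Sox7* had 17, 24 and 7 against 2, 9 and 9. The part of these shifts in the results given here was not tested. In RNA from many cells, fewer cells that express a gene and less RNA per cell cannot be told apart.

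The promoters of the pathway genes differ in base composition and in STAT-type letters, and 3 of them are printed here, those of *Socs3* and *Pim3*, which fell in *Tet iTKO* mESC, and of *Pim1*, which rose. RefSeq (GRCm38.p6) gives windows of 300 bases, 250 before and 50 from the transcription start, for 9 of the 10 genes, 11 windows in all. The STAT-type motif TTCNNNGAA, which reads the same on both strands, was found in 1 of these 11 windows, that of *Socs3*, as TTCTTAGAA with its first base at -154 (the base before the start is -1). It is held by 8.3% of all 32851 windows, and a match is only a match of letters. The whole *Socs3* window lies inside the gene span of the GENCODE M21 annotation (117966079 to 117970047), so -154 counts from the RefSeq start only. Both *Lifr* windows and the second *Pim1* window also lie inside the spans of their genes. CpG dinucleotides, where DNA methylation in mammals mostly sits, numbered 42 in the first *Pim1* window, 40 in that of *Pim3* and 31 in that of *Socs3*, against a median of 7 and quartiles of 3 and 20 over all windows. Genes that did not pass the test had CpG-rich windows too, with 53 and 4 in the windows of *Lifr*, 33 in that of *Il6st* and 29 in that of *Jak1*, while *Stat3*, which fell, had 15 and the second *Pim1* window 5. The untested *Jak2* had 44 and *Lif* 7. No DNA methylation values were analysed here. The *Socs3* window lies on chr11:117969317-117969616, minus strand, with capitals for the motif match, and the *Pim3* window on chr15:88861944-88862243 and the *Pim1* window on chr17:29490535-29490834, both plus strand, with capitals for each CpG.
Socs3: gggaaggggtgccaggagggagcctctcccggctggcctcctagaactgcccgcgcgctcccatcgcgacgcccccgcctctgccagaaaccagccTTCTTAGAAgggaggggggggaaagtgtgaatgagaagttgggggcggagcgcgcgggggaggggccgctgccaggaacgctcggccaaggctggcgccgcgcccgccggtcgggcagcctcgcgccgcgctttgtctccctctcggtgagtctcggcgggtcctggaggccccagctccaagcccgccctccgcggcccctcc
Pim3: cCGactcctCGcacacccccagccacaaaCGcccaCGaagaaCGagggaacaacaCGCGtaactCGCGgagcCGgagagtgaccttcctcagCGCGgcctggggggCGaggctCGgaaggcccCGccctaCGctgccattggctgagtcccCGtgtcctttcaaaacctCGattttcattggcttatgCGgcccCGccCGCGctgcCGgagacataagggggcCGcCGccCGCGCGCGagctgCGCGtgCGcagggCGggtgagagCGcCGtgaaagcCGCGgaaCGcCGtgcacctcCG
Pim1: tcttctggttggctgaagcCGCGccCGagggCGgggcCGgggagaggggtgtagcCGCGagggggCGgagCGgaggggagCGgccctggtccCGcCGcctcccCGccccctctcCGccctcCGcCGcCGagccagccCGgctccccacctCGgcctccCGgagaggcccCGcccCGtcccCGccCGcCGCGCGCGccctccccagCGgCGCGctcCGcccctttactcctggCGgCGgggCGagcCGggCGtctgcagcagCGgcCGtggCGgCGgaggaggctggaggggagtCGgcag

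Of the 10 genes, 8 reached a mean of 10 normalized counts and were tested, and among these *Pim1* rose while *Socs3*, *Stat3* and *Pim3* fell in *Tet iTKO* mESC. *Lifr*, *Il6st*, *Jak1* and *Socs2* did not pass the test, and *Lif* and *Jak2* were too low to be tested. The test was limma on log2(normalized count + 1) over 10524 genes with Benjamini-Hochberg adjustment, and genes with an adjusted p under 0.05 were called. It called 34.8% of all genes tested, 16.4% as higher and 18.4% as lower, and the groups did not overlap for 44.1% of them. Of the 8 pathway genes 4 were called, 1 higher and 3 lower, and the same number had groups that did not overlap. With so few genes these shares are near the background, and no result is read from the counts as such. The median log2 fold change was -0.17 over the 8 genes and 0.01 over all genes. The plot of normalized counts by library shows the 10 genes with every line as a point.

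**Figure D1:**
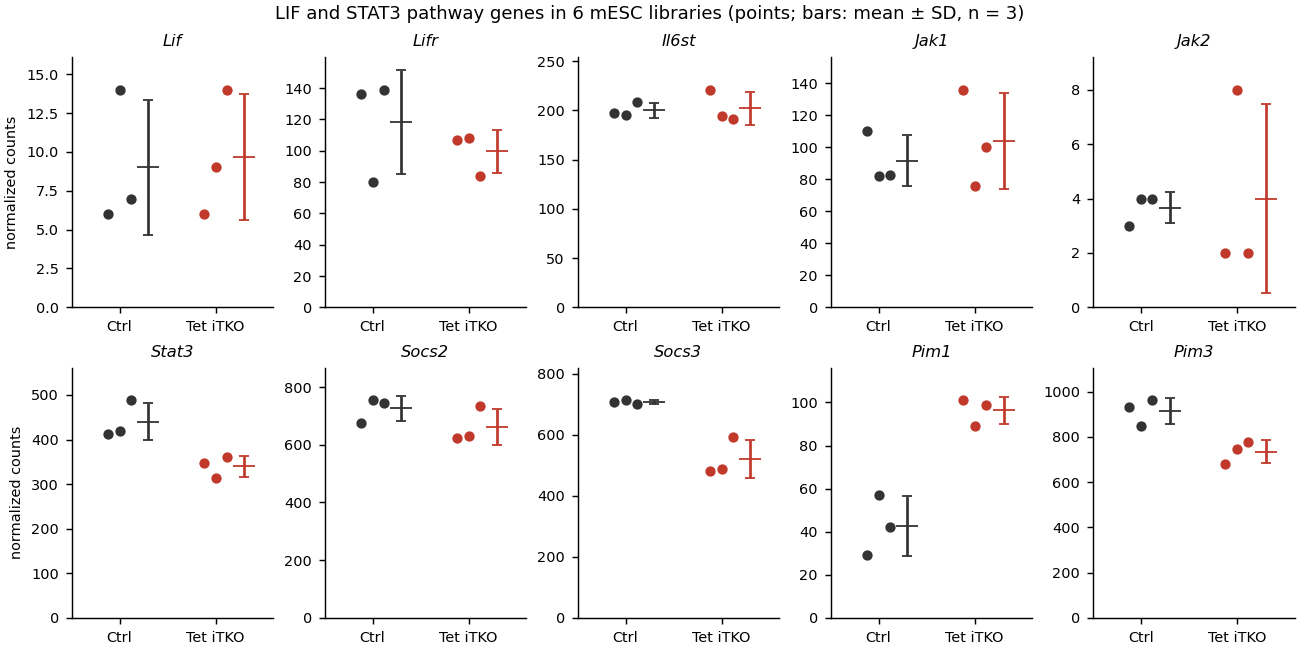
Normalized counts (y axis, linear, from 0) of the 10 LIF and STAT3 pathway genes in the 3 *Ctrl* (dark) and 3 *Tet iTKO* (red) libraries, with the mean and SD of each group beside its points. The groups are apart for *Stat3*, *Socs3*, *Pim3* (lower in *Tet iTKO*) and *Pim1* (higher), and overlap for the other 6 genes.

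*Lif*, the cytokine itself (chromosome 11 from 4257557 to 4272514; coordinates here are of GRCm38 in GENCODE M21), had 6, 14 and 7 normalized counts in *Ctrl* mESC against 6, 9 and 14 in *Tet iTKO* mESC. The groups overlapped fully, and a gene this low allows no statement on a change at this depth.

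The receptor chains showed no change that passed the test. *Lifr* (chromosome 15 from 7090614 to 7197489), which binds LIF first, had 136, 80 and 139 normalized counts across *Ctrl* lines against 107, 108 and 84 across *Tet iTKO* lines. The *Ctrl* lines spread more widely than the *Tet iTKO* lines, which lay within their range, and the log2 fold change was -0.21 (standard error 0.2, 95% interval -0.61 to 0.18, limma adjusted p = 0.43). Single lines moved this value of *Lifr*: it was -0.47 without *Ctrl* replicate 2 (limma adjusted p = 0.061), -0.07 without *Ctrl* replicate 3 and -0.09 without *Ctrl* replicate 1 or *Tet iTKO* replicate 3, and it was -0.39 under the GC content and length correction (limma adjusted p = 0.13). *Il6st* (chromosome 13 from 112464070 to 112510086), whose product gp130 passes on the signal of LIF and of the other cytokines of the IL-6 family, had 197, 195 and 209 against 221, 194 and 191. All 6 lines lay within a narrow band, and the log2 fold change was 0.01 (standard error 0.13, 95% interval -0.25 to 0.27, limma adjusted p = 0.97).

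Of the kinases, *Jak1* (chromosome 4 from 101152367 to 101265282) is the main signal-bearing kinase on gp130, and it had 110, 82 and 83 normalized counts across *Ctrl* lines against 136, 76 and 100 across *Tet iTKO* lines. The groups overlapped and the log2 fold change was 0.15 (standard error 0.2, 95% interval -0.26 to 0.57, limma adjusted p = 0.6). *Jak2* (chromosome 19 from 29251828 to 29313080) had 3, 4 and 4 against 2, 8 and 2, at or near the floor in every line.

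*Stat3* (chromosome 11 from 100885098 to 100939540), the transcription factor of the pathway and itself one of its targets, had 412, 420 and 488 normalized counts across *Ctrl* lines against 347, 314 and 360 across *Tet iTKO* lines. Each *Tet iTKO* line lay below each *Ctrl* line, and the *Tet iTKO* mean was 77.3% of the *Ctrl* mean. The log2 fold change was -0.37 (standard error 0.1, 95% interval -0.57 to -0.17, limma adjusted p = 0.0031), and 18.0% of all genes tested had a lower one. Correcting for transcript length and GC content moved the change to -0.62 (limma adjusted p = 3.3e-06). It was smaller with equal totals (-0.28, limma adjusted p = 0.021) and with quantile normalization (-0.30, limma adjusted p = 0.016). With eBayes run without a trend of variance on expression the gene lost its call (limma adjusted p = 0.059). The annotation places 72 bases of *Stat3* exons opposite those of *Stat5a*, out of 9527, and *Stat5a* itself had 56, 47 and 26 against 58, 36 and 26. Smart-Seq2 does not keep the strand, so reads in such overlaps cannot be assigned by it, although the counting used a strand option.

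The feedback inhibitors of the list did not all move. *Socs3* (chromosome 11 from 117966079 to 117970047), a direct STAT3 target whose product binds gp130 and blocks JAK activity, had 706, 713 and 700 normalized counts across *Ctrl* lines against 480, 489 and 592 across *Tet iTKO* lines. The *Ctrl* lines were nearly equal, and the highest *Tet iTKO* line was still below all of them. *Socs3* fell by 0.45 on the log2 scale (standard error 0.08, 95% interval -0.62 to -0.28, limma adjusted p = 5.7e-05), to 73.7% of the *Ctrl* mean, and 13.6% of all genes had a lower fold change. *Socs2* (chromosome 10 from 95385362 to 95417180), best known as an inhibitor of growth hormone signalling through STAT5, had 677, 754 and 746 against 622, 629 and 733. One *Tet iTKO* line lay among the *Ctrl* lines, and the log2 fold change of -0.14 (standard error 0.08, 95% interval -0.3 to 0.02, limma adjusted p = 0.19) did not pass the test.

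The PIM kinases, serine and threonine kinases that favour growth and survival and are active once made, moved in opposite directions. *Pim3* (chromosome 15 from 88862186 to 88865726) had 932, 849 and 962 normalized counts across *Ctrl* lines against 681, 747 and 778 across *Tet iTKO* lines, with no overlap between groups. It fell by 0.31 on the log2 scale (standard error 0.07, 95% interval -0.46 to -0.16, limma adjusted p = 0.00094), to 80.4% of the *Ctrl* mean. The change of *Pim3* was -0.58 after the GC content and length correction (limma adjusted p = 6.3e-08). It was smaller with equal totals (-0.23, limma adjusted p = 0.013) and with quantile normalization (-0.21, limma adjusted p = 0.024). The limma adjusted p of *Pim3* was 0.066 with eBayes without the trend.

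*Pim1* (chromosome 17 from 29490753 to 29496112) had 29, 57 and 42 normalized counts across *Ctrl* lines against 101, 89 and 99 across *Tet iTKO* lines. The *Tet iTKO* lines lay close together and above all *Ctrl* lines, at 226% of the *Ctrl* mean. *Pim1* rose by 1.21 on the log2 scale (standard error 0.25, 95% interval 0.71 to 1.7, limma adjusted p = 0.00017), and 4.46% of all genes tested had a larger fold change. In the annotation 488 of its 3362 exon bases lie opposite *Gm26885*, for which no value was analysed here. Of the 12 feeder markers *Fn1*, *Col1a1*, *Col1a2* and *Col3a1* were higher in the same libraries, while the sums of the other 8 overlapped between the groups. Among those 8 the untested *Fbn1* had 2, 1 and 2 normalized counts in *Ctrl* against 15, 10 and 6 in *Tet iTKO* lines. The untested *Dcn*, *Lum* and *Pdgfrb* had lower means in *Tet iTKO* lines. Any part of feeder RNA in the rise of *Pim1* was not tested. *Thy1*, the gene of the CD90 antigen that the sort was gated against, had 30, 46 and 41 normalized counts against 47, 35 and 23.

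Log2 ratios of gene pairs within a library, which do not depend on its scaling, were set side by side for 4 pairs with an exact two-sided permutation test, whose smallest p for 3 lines against 3 is 0.1. *Pim3* to *Pim1* had log2 ratios of 4.96, 3.87 and 4.49 in *Ctrl* and of 2.74, 3.06 and 2.96 in *Tet iTKO* mESC, a difference of -1.52 (exact p = 0.1, adjusted over the 4 pairs 0.2). *Socs3* to *Socs2* had 0.06, -0.08 and -0.09 against -0.37, -0.36 and -0.31, a difference of -0.31 (exact p = 0.1, adjusted 0.2). Both pairs were separated in all 6 lines, which this design cannot take past the threshold. The ratio of *Lifr* to *Il6st* differed by -0.22 (exact p = 0.4, adjusted 0.533), within the spread between lines, and by -0.46 without *Ctrl* replicate 2, -0.09 without *Ctrl* replicate 1, -0.11 without *Ctrl* replicate 3 and -0.14 without *Tet iTKO* replicate 3. The fourth pair, *Jak2* to *Jak1*, counts in the adjustment but is not read, since *Jak2* lay at or near the floor.

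Levels of different genes were compared as normalized counts per kb of exon. In *Ctrl* mESC *Pim3* stood highest at 377 ± 24.1 per kb (SD, n = 3), followed by *Socs3* at 244 ± 2.25, *Socs2* at 76.1 ± 4.44, *Stat3* at 46.2 ± 4.38 and *Il6st* at 18.0 ± 0.682. Each of these 5 lay above the next in all *Ctrl* lines. *Pim1* at 12.7 ± 4.17, *Jak1* at 12.7 ± 2.2 and *Lifr* at 11.0 ± 3.08 per kb (SD, n = 3) could not be ordered, since their lines overlapped. *Lif* at 2.07 ± 1.0 and *Jak2* at 0.729 ± 0.115 came last. In *Tet iTKO* mESC the first 4 kept their order, with *Pim3* at 303 ± 20.4, *Socs3* at 180 ± 21.5, *Socs2* at 69.4 ± 6.52 and *Stat3* at 35.7 ± 2.49 per kb (SD, n = 3). *Pim1* at 28.7 ± 1.91 then stood above *Il6st* at 18.2 ± 1.49 in all 3 lines. *Jak1* at 14.4 ± 4.18 overlapped with *Il6st* and lay above *Lifr* with its mean of 9.25, and *Lif* at 2.22 ± 0.929 overlapped with *Jak2* at 0.795 ± 0.689 per kb (SD, n = 3).

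The place of these genes within their families is given as shares per library in the plot of family shares. The families were chosen after their values were seen, and the shares are given as a description with no test. *Pim3* held 74.8% ± 2.96 (SD, n = 3) of the PIM total per kb in *Ctrl* and 53.6% ± 1.57 in *Tet iTKO* mESC, *Pim2* 22.6% ± 3.0 and 41.3% ± 1.48, and *Pim1* 2.55% ± 0.95 and 5.08% ± 0.504. The PIM total was 503 ± 22.8 normalized counts per kb in *Ctrl* and 565 ± 23.9 in *Tet iTKO* mESC (SD, n = 3), so the lower *Pim3* level stood beside a total that was no lower. Of the SOCS total, which was 356 ± 5.59 and 303 ± 22.3 per kb, *Socs3* held 68.7% ± 1.3 and 59.3% ± 3.31, and *Socs1* 2.19% ± 0.0815 and 6.84% ± 3.0. The most abundant Janus kinase per kb was neither *Jak1* nor *Jak2* but *Jak3*, with 54.8% ± 4.18 and 63.0% ± 1.79 of the JAK total (SD, n = 3).

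**Figure D2:**
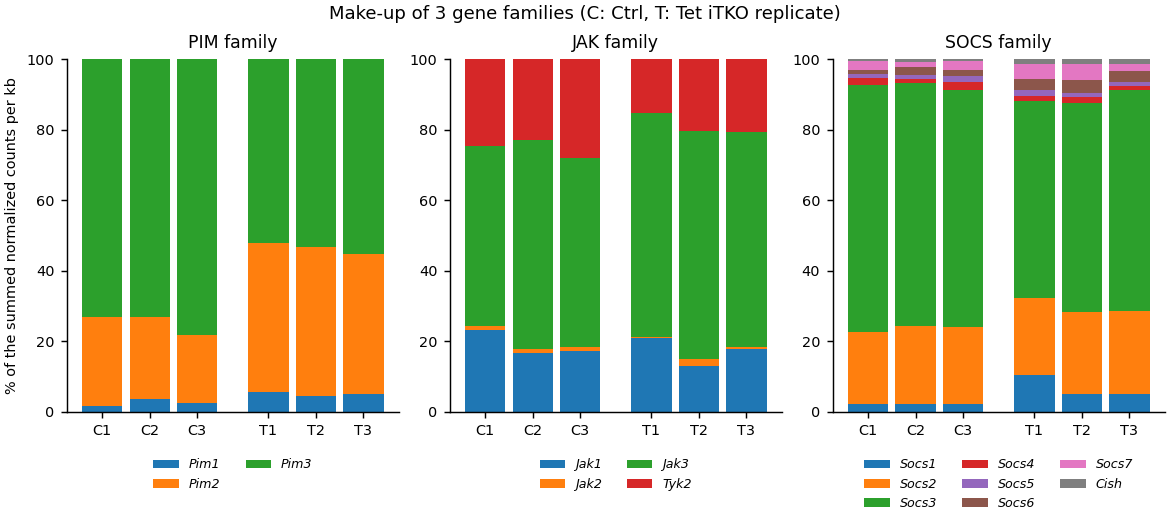
Share of each gene (y axis, percent of the family's summed normalized counts per kb) in the PIM, JAK and SOCS families, with 1 bar for each *Ctrl* (C1 to C3) and *Tet iTKO* (T1 to T3) library. *Pim2* took 19.3 to 25.1% of the PIM total in *Ctrl* and 39.6 to 42.2% in *Tet iTKO* libraries.

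Of 48 further genes of the pathway and its neighbours, 39 were tested, and 8 rose, 2 fell and 29 did not pass the test, with a median log2 fold change of 0.19 (0.01 over all genes). The share that rose, 20.5%, is near the 16.4% of all genes called higher, 5.13% fell against 18.4% of all genes, and nothing is read from these counts. One of the 8, *Il6ra*, was at 1 in every *Ctrl* line. Of the 12 feeder markers 5 were tested, and *Fn1* and the 3 collagen genes were called higher in the same libraries, while *Thy1* was not called. The rest were too low to be tested, among them *Fbn1*, whose groups did not overlap. The sums of the 8 markers besides *Fn1* and the collagens overlapped between the groups. Any part of feeder RNA in the rises of the pathway genes was not tested. The 48 genes were listed by function, with earlier results of these data known. When libraries were rescaled to equal totals, 61.9% of all calls were higher in *Tet iTKO* mESC in place of 47.2%, and 13 of the 39 genes rose and 1 fell. With eBayes without the trend *Socs6*, *Pias1*, *Ptpn2*, *Grb2* and *Klf4* lost their calls (limma adjusted p of 0.055 for *Socs6* to 0.078 for *Klf4*). *Pias1* also lost its call with quantile normalization (0.076) and with no filter on low genes (0.075), *Stat5b* with quantile normalization (0.05) and *Grb2* with equal totals (0.056). The plot of fold changes with their intervals shows these genes by group.

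**Figure D3:**
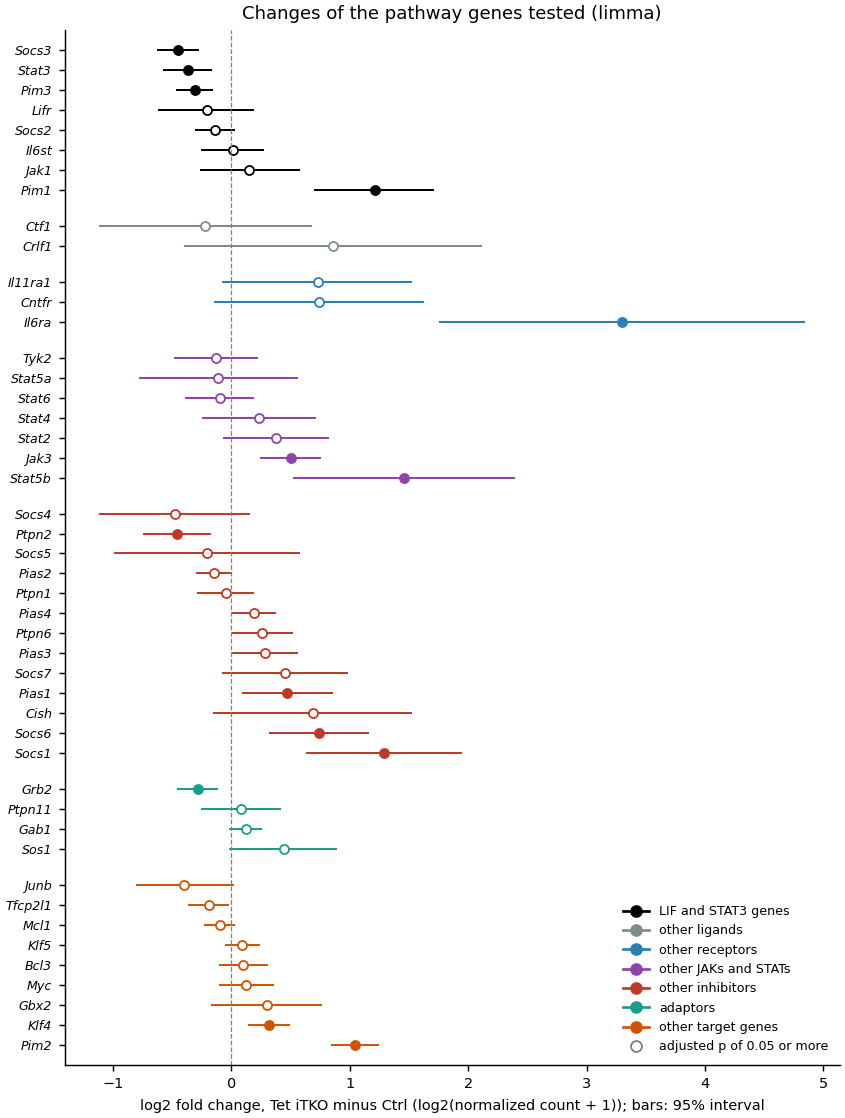
Log2 fold change (x axis, *Tet iTKO* minus *Ctrl*, on log2(normalized count + 1)) with its 95% interval for the 8 tested LIF and STAT3 genes and 38 of the 39 other pathway genes tested, grouped by role. Filled points passed an adjusted p of 0.05, with *Pim1*, *Pim2*, *Socs1* and *Stat5b* beyond 1, and open points did not. The point of *Il6ra*, under the floor in *Ctrl*, depends on the pseudocount and is not a measured fold change.

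Other ligands of the IL-6 family were scarce: 7 of 9 were under the filter, with 0 to 14 normalized counts in any library, and neither of the other two passed the test. *Ctf1* (cardiotrophin), with the higher mean count of these, had 21, 13 and 34 against 21, 23 and 12 (log2 fold change -0.22, limma adjusted p = 0.74). Among 5 other receptor chains, *Il6ra*, which binds IL-6 and hands it to gp130, was the only one called. It had 1 normalized count in each *Ctrl* line and 27, 12 and 20 in *Tet iTKO* mESC, and its *Tet iTKO* mean of 19.7 was at least 6.57-fold higher than the floor of 3 per library. *Il6ra* reached the mean of 10 needed for testing only through the *Tet iTKO* lines, so its call is not read as a test. *Il11ra1*, whose mean count over the 6 lines was the highest of those not called but close to that of *Cntfr* (35, 14 and 9 against 26, 24 and 36), had 17, 13 and 26 against 31, 36 and 25 (log2 fold change 0.73, limma adjusted p = 0.15).

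Among 8 other kinases and STATs, *Jak3*, known as the partner of the common gamma chain of lymphoid cytokine receptors, rose from 179, 217 and 193 to 307, 276 and 252 normalized counts (log2 fold change 0.5, limma adjusted p = 0.0013). Its call was lost under the GC content and length correction, where the change was 0.07 (limma adjusted p = 0.72). *Stat5b* rose from 13, 7 and 11 to 17, 40 and 37 (log2 fold change 1.46, limma adjusted p = 0.012), a call that was lost without *Tet iTKO* replicate 2 (1.24, limma adjusted p = 0.1) or replicate 3 (1.3, limma adjusted p = 0.079). *Stat6*, with the highest mean count of those that did not pass, had 182, 187 and 251 against 167, 189 and 220 (log2 fold change -0.1, limma adjusted p = 0.62).

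Of 13 other inhibitors, 3 rose and 1 fell. *Socs1*, which blocks JAK kinases directly, rose from 23, 23 and 22 to 89, 42 and 49 normalized counts (log2 fold change 1.29, limma adjusted p = 0.0017), opposite in direction to *Socs3*. *Socs6* rose from 53, 92 and 71 to 108, 126 and 120 (log2 fold change 0.74, limma adjusted p = 0.0041). *Pias1*, a SUMO ligase that restrains STAT proteins, had 82, 100 and 75 against 132, 104 and 121 (log2 fold change 0.47, limma adjusted p = 0.044). The call of *Pias1* was lost without *Ctrl* replicate 1 (limma adjusted p = 0.091) or 3 (0.14) and without *Tet iTKO* replicate 1 (0.16) or 3 (0.11). *Ptpn2*, a phosphatase of JAK1 and STATs, fell from 188, 209 and 255 to 173, 149 and 148 (log2 fold change -0.46, limma adjusted p = 0.0086). The change of *Ptpn2* was -0.2 under the GC content and length correction (limma adjusted p = 0.32) and -0.34 without *Ctrl* replicate 3 (limma adjusted p = 0.087), so neither passed. *Pias2*, with the highest mean count of the inhibitors that did not pass, had 880, 862 and 914 against 763, 791 and 843 (log2 fold change -0.15, limma adjusted p = 0.1).

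Of 4 adaptors that link gp130 to the Ras pathway, *Grb2* fell from 605, 647 and 602 to 534, 477 and 513 normalized counts (log2 fold change -0.28, limma adjusted p = 0.0063). *Gab1*, with the highest mean count of the 4, had 1184, 1235 and 1055 against 1256, 1213 and 1300 (log2 fold change 0.12, limma adjusted p = 0.16).

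Of 9 other target genes 2 rose. *Pim2*, the X-linked PIM kinase, had 368, 314 and 273 normalized counts across *Ctrl* lines against 634, 681 and 642 across *Tet iTKO* lines, and rose by 1.04 on the log2 scale (standard error 0.1, limma adjusted p = 6.3e-11). Of 4 Y-linked genes looked at in the same libraries, *Eif2s3y* fell from 363, 344 and 375 to 182, 181 and 178 (log2 fold change -1.0, limma adjusted p = 5.6e-09). The other 3 did not pass the test, with log2 fold changes of -0.83 for *Kdm5d*, -0.37 for *Uty* and -0.29 for *Ddx3y*. Any relation to *Pim2*, on the X, was not tested. *Pim1* and *Pim2* rose in the same lines in which *Pim3* fell. *Klf4*, a pluripotency factor that LIF and STAT3 are known to sustain, rose from 541, 502 and 467 to 577, 627 and 680 (log2 fold change 0.32, limma adjusted p = 0.0032), but its change was 0.21 under the GC content and length correction (limma adjusted p = 0.064). *Mcl1*, an anti-apoptotic gene with the highest mean count of the list, had 1819, 2046 and 1934 against 1899, 1697 and 1819 (log2 fold change -0.1, limma adjusted p = 0.19).

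The 4 calls among the LIF and STAT3 genes held in each of the 6 fits that left out 1 line, as the plot of fold changes by setting shows. In these fits the log2 fold change ran from -0.41 to -0.29 for *Stat3*, from -0.54 to -0.39 for *Socs3*, from -0.37 to -0.26 for *Pim3* and from 0.96 to 1.44 for *Pim1*.

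**Figure D4:**
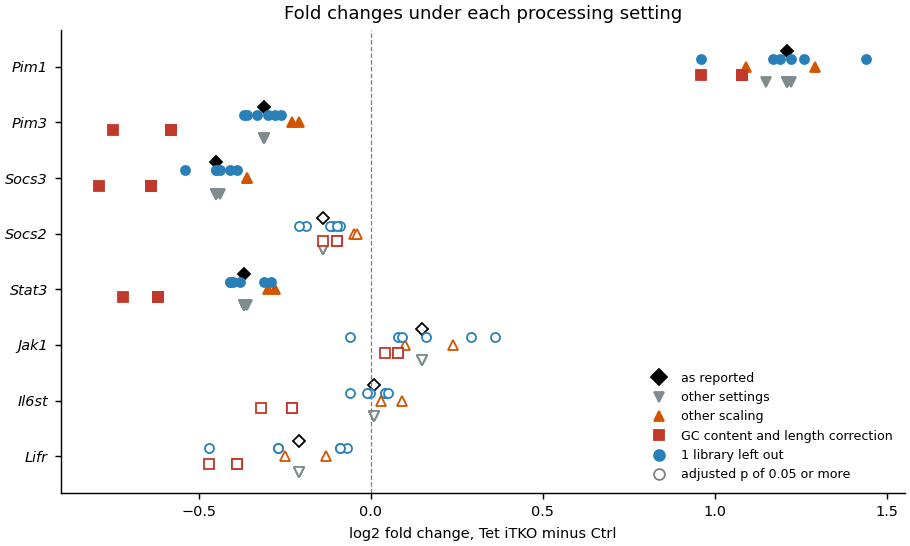
Log2 fold change (x axis, *Tet iTKO* minus *Ctrl*) of the 8 tested genes as reported (diamonds) and under each other setting, with filled symbols where the adjusted p was under 0.05. *Stat3*, *Socs3*, *Pim3* and *Pim1* stay on 1 side of 0 throughout, while the points of *Il6st* and *Jak1* lie on both sides.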

How the data were processed

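RNA from 3 *Ctrl* and 3 *Tet iTKO* mESC lines was measured as Smart-Seq2 libraries. The authors aligned reads uniquely with STAR, counted reads on each gene by HTSeq 0.7.1 with the stranded setting, and divided by DESeq2 1.26.0 size factors in R 3.5.2; mm9 is the build in the submitters' notes. Smart-Seq2 does not keep the strand, so that setting leaves out reads that fell on the opposite strand and can give a gene reads of an antisense partner; depths here are of the reads counted, and the effect could not be checked from gene totals. The deposited values (unit: score) are these normalized counts after rounding, not whole read counts, so count models were not run. Symbols, lengths, GC content and coordinates came from GENCODE M21 (GRCm38), matched for 20775 of 22380 identifiers with the version dropped, and promoter windows from RefSeq (GRCm38.p6).

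*Tet iTKO* was set against *Ctrl* by limma 3.58.1 (lmFit, eBayes with a trend; R 4.3.3) on log2(normalized count + 1), which understates changes of low genes, over genes whose mean was 10 or more, and p-values were adjusted by Benjamini-Hochberg. Reads per library were estimated from whole numbers missing or doubled by rounding; floors cover counting error only, since PCR copies of a molecule could not be told apart. The size factors behind the read estimate and the limma calls were tested on simulated data, and the floor was not. The size factor came within 1% in 10 of 10 simulated libraries. With an assumed spread between lines, limma called 95 of 100 genes changed by 1 on the log2 scale and 52 of 100 changed by 0.5. It also called 7 unchanged genes, with 10528 tested. The assumed spread was the same for every gene, and far fewer genes were changed than were called in the real data. These shares therefore need not hold for the real data. Per-kb levels used all exon bases of a gene. Ratios were compared with exact permutation tests (SciPy 1.17.1). The GC content and length correction subtracted, in each library, a robust loess fit (span 0.3) of deviations from the gene mean.

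Alternatives were pseudocounts of 0.5 and 4, no filter and a mean of at least 50, equal totals, quantile normalization, eBayes without trend, a replicate block, the GC content and length correction with and without that block, and leaving out each line. A least-squares form of the correction was added after seeing the data. The genes and lists were chosen with earlier results of these data known. Named genes are the 10 listed, those of each further list that passed (up to 5 by adjusted p) and the one with the highest mean count that did not. Proteins were not analysed here, and 1 gene of the further lists enters the counts but is not reported here.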

Additional observations from a re-analysis of the deposited data

How the results depend on the processing

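The direction of *Stat3*, *Socs3*, *Pim3* and *Pim1* was kept under every alternative run, and their calls under every one but eBayes without trend, which left 1 of the 3 lower calls (*Socs3*). That setting gave 1075 higher and 1217 lower genes in all in place of 1731 and 1934, and 0 lower calls among the other pathway genes by limma (3 at an unadjusted p under 0.05). The GC content and length correction gave 5 lower calls among these, alone and with the block (*Tfcp2l1*, *Ptpn1*, *Tyk2*, *Junb* and *Grb2*, named after their values were seen). Its least-squares form gave 1014 higher genes in all, with 4 higher and 6 lower among the other pathway genes, turned *Jak3* to -0.11 and moved *Stat3* to -0.72, *Socs3* to -0.79 and *Pim3* to -0.75. A mean of at least 50 left 5 higher calls among the other pathway genes, and equal totals gave 13 higher and 1 lower. Both other scalings made the falls smaller. Equal totals gave -0.28 for *Stat3*, -0.36 for *Socs3* and -0.23 for *Pim3*, and quantile normalization gave -0.30, -0.36 and -0.21.

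*Il6st* turned to -0.23 under the GC content and length correction, also with the block, and to -0.32 under its least-squares form. Leaving out 1 line took *Il6st* from -0.06 to 0.05, *Jak1* from -0.06 to 0.36, *Lifr* from -0.47 to -0.07, the *Lifr* to *Il6st* ratio from -0.46 to -0.09 and the *Jak2* to *Jak1* ratio, which is not read, from -0.99 to 0.22; lower calls among the other pathway genes ran from 1 (without *Ctrl* replicate 3) to 3 (without *Tet iTKO* replicate 2). None of *Il6st*, *Jak1* and *Lifr* was called under any setting. The causes were not tested. Same-numbered lines did not deviate together (correlations of 0, -0.01 and 0), and the main fit did not pair them. Such correlations cannot exclude that lines were handled in pairs, and the paper states that its RNA data came from independent experiments. With the replicate block 1762 genes were higher and 1980 lower, and the 4 calls among the LIF and STAT3 genes were unchanged.

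With 3 lines a group, changes such as that of *Socs2* cannot be told from none, and *Lif* and *Jak2* lie too near the floor of 3 normalized counts for any statement. RNA levels say nothing of phosphorylated STAT3.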
